A study of Homo sapiens with 12 samples.

Results

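The genes described here are the long non-coding RNAs that carry a systematic name, LINC followed by a number (long intergenic non-protein-coding RNA). They were taken from the deposited gene table by that symbol pattern, with 1 locus left out by the selection rule, which gave 116 of 13869 genes. The pattern itself uses no measured value, but the set was picked for study with earlier results of these data known. The RNA sequencing series set lestaurtinib, a multi-kinase inhibitor of the indolocarbazole class that acts on JAK2, FLT3 and TRK kinases among others, against DMSO vehicle in 2 wild-type human ovarian carcinoma cell lines. The 4 groups of 3 libraries each were MDAH-2774 (labelled endometrioid ovarian cancer) with 500 nM lestaurtinib for 24 h, MDAH-2774 with vehicle, OVSAHO (labelled high-grade serous ovarian cancer) with 500 nM lestaurtinib for 24 h, and OVSAHO with vehicle. The stated purpose was to find the genes that lestaurtinib regulates. The labels do not say whether the 3 libraries of a group came from separate cultures: all p-values rest on library-to-library spread, which could be technical. Each histological type is represented by 1 cell line. These are bulk libraries, in which fewer cells with an RNA and less of it per cell cannot be told apart.

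Long non-coding RNAs are transcribed by RNA polymerase II, are mostly spliced and polyadenylated, and act, where an action is known, as RNA: some guide chromatin regulators, some act on neighbouring genes, some bind proteins or microRNAs, and for many no function has been established. They are known for low levels and for expression restricted to few tissues or cell types. The systematic LINC name marks loci that lie between coding genes and mostly lack an established function. A few have been studied in carcinomas, such as LINC00511, reported as raised in several tumour types, and LINC00472, reported as low in breast tumours.

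The 116 genes lay on 23 chromosomes, and RefSeq lists all 116 as long non-coding RNA. Their median exonic length was 1686.5 bases, against 3442 bases over all genes of the table, and their median number of separate exon intervals was 3, against 9 over all genes. Exons of 34 members overlapped a GENCODE gene on the opposite strand, and in 4 of them at least 50% of the exonic bases did. Among these 4, LINC00339, which is named below, had 81.2% of its exonic bases overlapped. Whether the authors' counting used the strand is not stated in the labels or notes, so reads of such pairs cannot be told apart. Of 115 members with a GENCODE transcript, 8 had at least 50% of it matched at 97% identity or more by other transcripts. Among the members named below, LINC01410 was matched over 100% of its length, LINC01123 over 94.8% (longest by LINC01106), LINC00869 over 59.0%, LINC03009 over 49.1%, LINC01535 over 16.7% (by the member LINC00665), LINC02043 over 16.1% and LINC01356 over 9.6%, so their counts may be shared with the copies.

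Libraries held 32875940 to 55941446 counts over the listed genes. Epithelial markers were present in every library (EPCAM, KRT7, KRT8, KRT18 and CDH1 summed to 1391 to 2583 CPM), and so was the Müllerian factor PAX8, at 181 to 310 CPM. CDH1 was lower in MDAH-2774, at 6.1 to 9.097 CPM, than in OVSAHO, at 28.99 to 41.57 CPM. KRT7 was lower there as well, at 53.38 to 86.28 against 230.7 to 438.3 CPM. EPCAM ran the other way, at 85.07 to 107.1 CPM in MDAH-2774 and 35.45 to 46.56 CPM in OVSAHO. KRT8 and KRT18 overlapped between the lines. Of 7 Müllerian and ovarian carcinoma markers, 5 were in the table, and MUC16 and FOXJ1 were not. The oestrogen receptor gene ESR1 had 0 counts in all 6 MDAH-2774 libraries. MSLN and SOX17 were also low there, at 0 to 0.2302 and 0 to 1.288 CPM, while WT1 stood at 17.05 to 23.67 CPM. In OVSAHO, MSLN stood at 80.31 to 145.4 CPM, SOX17 at 24.69 to 32.4 CPM, ESR1 at 54.53 to 63.33 CPM and WT1 at 58.3 to 88.86 CPM. The mesenchymal markers VIM, CDH2 and ZEB1 summed to 660.4 to 1304 CPM over all libraries. Of the fibroblast, blood and endothelial lists, 1 marker each was in the table (COL1A1, CD68 and CDH5). The endothelial cadherin CDH5 stood at 11.98 to 14.7 CPM in lestaurtinib-treated MDAH-2774, against 1.27 to 1.80 CPM in vehicle-treated MDAH-2774, while PECAM1 and VWF were not in the table. The part of this in the results was not tested.

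LINC RNAs were low. CPM here are read counts scaled to library size with TMM factors, and the authors' RPKM, which is scaled by transcript length as well, is used wherever genes are compared with each other. The median over members of the group's mean RPKM was 1.30 in lestaurtinib-treated MDAH-2774 and 0.910 in vehicle-treated MDAH-2774, where the medians over all genes were 6.92 and 6.56. It was 0.951 in lestaurtinib-treated OVSAHO and 1.14 in vehicle-treated OVSAHO, where the medians over all genes were 5.91 and 6.004. The deposited table lists genes above 1 RPKM in at least 1 library, so each member had to reach that level somewhere. Only 28 members (24.1%) were above it in all 12 libraries, against 70.1% of all genes, and 34 members (29.3%) were above it in 1 to 3 libraries, against 8.14% of all genes.

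A single gene, LINC02067, held 25.8 to 31.2% of all member counts and had the highest RPKM of all members in every group, 101 ± 1.96 in lestaurtinib-treated and 85.2 ± 2.40 in vehicle-treated MDAH-2774, and 89.2 ± 3.27 in lestaurtinib-treated and 89.3 ± 4.12 in vehicle-treated OVSAHO (SD, n = 3 each). It lies at chr3:161426427-161448242 (hg38, plus strand), and 119 of its exonic bases (4.2%) run opposite to RPL23AP42, a processed pseudogene of a ribosomal protein gene. By RPKM, LINC02067 was followed in vehicle-treated OVSAHO by LINC00665 at 44.6 ± 0.893, LINC00958 at 28.2 ± 3.13 and LINC00839 at 19.2 ± 0.569, each apart from the next in that order by more than the SDs. In vehicle-treated MDAH-2774 it was followed by LINC03040 at 15.4 ± 1.07, LINC01123 at 11.6 ± 1.44 and LINC00339 at 11.6 ± 0.405, of which the last 2 were level (SD, n = 3 each). In lestaurtinib-treated OVSAHO, LINC02904 came next after LINC00839, at 13.2 ± 0.477 against 17.2 ± 0.687 RPKM.

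All members together summed to 861 ± 16.7 CPM in lestaurtinib-treated MDAH-2774, against 749 ± 28.4 CPM in vehicle-treated MDAH-2774. In OVSAHO they summed to 1020 ± 22.3 CPM with lestaurtinib, against 1004 ± 14.8 CPM with vehicle (SD, n = 3 each). The treated and vehicle sums did not overlap in MDAH-2774 (847 to 880 against 717 to 770 CPM) and overlapped in OVSAHO (996 to 1041 against 990 to 1020 CPM).

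Most LINC RNAs differed between the lines, as did most genes. In the vehicle libraries, 81 of 115 tested members (70.4%) differed between OVSAHO and MDAH-2774 at an adjusted p under 0.05 (edgeR quasi-likelihood test, Benjamini-Hochberg over 13498 genes), where 77.4% of all genes tested did. Of these, 49 were higher in OVSAHO (42.6%, against 38.6% of all genes) and 32 were lower in OVSAHO (27.8%, against 38.9%). At an unadjusted p under 0.05 there were 85 (73.9%, against 78.8% of all genes), and the vehicle libraries of the lines did not overlap for 50 members higher (43.5%, against 38.7%) and 31 lower in OVSAHO (27.0%, against 38.9%). The share called was near the background, and the sizes differed more. With at least a 2-fold fitted difference, 69 members (60.0%) were called, against 39.9% of all genes. With at least a 10-fold one, 34 members (29.6%) were, against 11.5%. These size shares were not matched for level. A low gene enters the deposited table by passing 1 RPKM in at least 1 library, which favours genes high in 1 line. Folds against groups at 0 counts also depend on the fit. The size shares are therefore not read as a trait of LINC RNAs. The median log2 difference, OVSAHO minus MDAH-2774, was 0.62 over members and -0.02 over all genes.

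Several members were listed at 0 counts throughout one line. There were 11 members (9.48%) with 0 counts in all 6 MDAH-2774 libraries, against 1.80% of the table, namely LINC00958, LINC00664, LINC01132, LINC02864, LINC00221, LINC01060, LINC03041, LINC01167, LINC01812, LINC01484 and LINC00113. Another 5 (4.31%) had 0 counts in all 6 OVSAHO libraries, against 1.5% of the table, namely LINC01806, LINC01356, LINC01607, LINC00937 and LINC02541. Such a gene is in the deposited table only because it passed 1 RPKM in the other line. Members were also lower than other genes, with 50.9% under a mean of 2 CPM, against 10.6% of the table. The shares at 0 counts were not matched for level and are not read as a trait of LINC RNAs. A count of 0 is a floor and not absence: folds against such a group are given below as lower bounds against 3 counts over its 3 libraries, which covers counting error only.

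LINC00839 and LINC00958 were the most abundant of the OVSAHO-restricted RNAs. LINC00839 (chr10:42475491-42495337, plus strand) had 48.0, 45.7 and 47.0 CPM in the vehicle libraries of OVSAHO and 0 counts in the 3 vehicle libraries of MDAH-2774, at least 2014-fold higher in OVSAHO (adjusted p = 1.3e-14, edgeR). It had 2 counts in 1 lestaurtinib-treated MDAH-2774 library and 40.9, 43.8 and 43.2 CPM in lestaurtinib-treated OVSAHO. LINC00958 (chr11:12979534-12989548, minus strand) had 43.2, 53.0 and 43.9 CPM in vehicle-treated OVSAHO and 0 counts in all 6 MDAH-2774 libraries, at least 1993-fold higher in OVSAHO (adjusted p = 1.2e-13, edgeR). Both were thus high in every OVSAHO library and at or near 0 in every MDAH-2774 library, treated or not.

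The next OVSAHO-restricted members were lower. LINC00664 had 6.08, 6.65 and 6.56 CPM in vehicle-treated OVSAHO, at least 274-fold higher than in MDAH-2774 with vehicle, LINC01132 4.79, 5.82 and 5.45 CPM (at least 227-fold), LINC02864 4.70, 3.44 and 5.43 CPM (at least 194-fold) and LINC00221 3.64, 4.26 and 4.19 CPM (at least 171-fold), each against 0 counts in vehicle-treated MDAH-2774. These 4 were even across the 3 libraries. LINC01060 was not, at 0.698, 2.29 and 4.21 CPM in vehicle-treated OVSAHO (37, 94 and 160 counts), at least 94.5-fold higher, and its fitted log2 difference was 9.04 without library 3, against 9.68 with all 3. LINC01819, LINC01176 and LINC03041 had 43 to 152, 31 to 72 and 27 to 75 counts per OVSAHO vehicle library against 0 in each MDAH-2774 vehicle library, at least 80.6-fold, 51.6-fold and 45.1-fold higher. For LINC03041 the fitted log2 difference was 7.92 without OVSAHO vehicle library 2, which held 75 of its counts, against 8.53. GENCODE v29 annotates LINC03041 as the protein-coding gene C9orf92 over 100% of its exonic bases.

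LINC01320 and LINC01535 had some counts in vehicle-treated MDAH-2774. LINC01535 had 833, 524 and 670 counts in vehicle-treated OVSAHO, against 31, 10 and 0 in vehicle-treated MDAH-2774, a log2 difference of 5.60 ± 0.51 (SE, adjusted p = 2.3e-08, edgeR), which was 6.94 without MDAH-2774 vehicle library 1 and 5.01 without library 3. LINC01320 had 168, 168 and 87 counts in vehicle-treated OVSAHO, against 0, 0 and 8 in vehicle-treated MDAH-2774, a log2 difference of 5.62 ± 0.88 (adjusted p = 1.7e-05, edgeR). Its size rested on the 8 counts of MDAH-2774 library 3, without which the fitted value was 10.09, and it was 5.02 without library 1.

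LINC01123 led the other direction. It had 0 counts in each vehicle-treated OVSAHO library, against 29.1, 23.9 and 31.1 CPM in vehicle-treated MDAH-2774, at least 1240-fold lower in OVSAHO (adjusted p = 1.5e-13, edgeR), and 1 lestaurtinib-treated OVSAHO library had 2 counts. It lies at chr2:109986980-109995281, opposite over 41.5% of its exonic bases to the pseudogene ZBTB45P1. LINC01806 had 188, 207 and 86 counts and LINC01356 had 82, 38 and 110 counts in vehicle-treated MDAH-2774, where each vehicle-treated OVSAHO library had 0, at least 164-fold and 78.7-fold lower in OVSAHO. LINC00943 had 0 counts in each vehicle-treated OVSAHO library, against 27, 92 and 14 in vehicle-treated MDAH-2774, at least 45.5-fold lower in OVSAHO, and the fitted log2 difference was -7.30 without MDAH-2774 vehicle library 2, against -8.54.

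Other MDAH-2774-biased members were present in both lines. LINC03040, which GENCODE v29 annotates as the protein-coding gene C6orf223 over 99.6% of its exonic bases, had 9.17, 7.02 and 10.1 CPM in vehicle-treated OVSAHO, against 50.1, 56.2 and 54.3 CPM in vehicle-treated MDAH-2774, a log2 difference of -2.61 ± 0.14 (adjusted p = 1.1e-11, edgeR). LINC00673 had 1.04, 0.975 and 0.421 CPM in vehicle-treated OVSAHO, against 24.1, 21.4 and 21.9 CPM in vehicle-treated MDAH-2774, a log2 difference of -4.76 ± 0.35 (adjusted p = 1.2e-09, edgeR). The 2 lines did not overlap for either gene. LINC02381, LINC01273, LINC01843, LINC01508, LINC00471 and LINC01410 were lower in OVSAHO by fitted log2 differences of -4.80 to -2.66, with 0 to 22 counts per vehicle-treated OVSAHO library. The LINC02381 value was -8.13 without OVSAHO vehicle library 1, which held 21 of the 22 counts of that group. That of LINC01273 was -4.85 without OVSAHO vehicle library 2, against -4.18, and that of LINC01508, at -3.16, was -2.51 without OVSAHO vehicle library 1 and -3.82 without library 2.

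**Figure D1:**
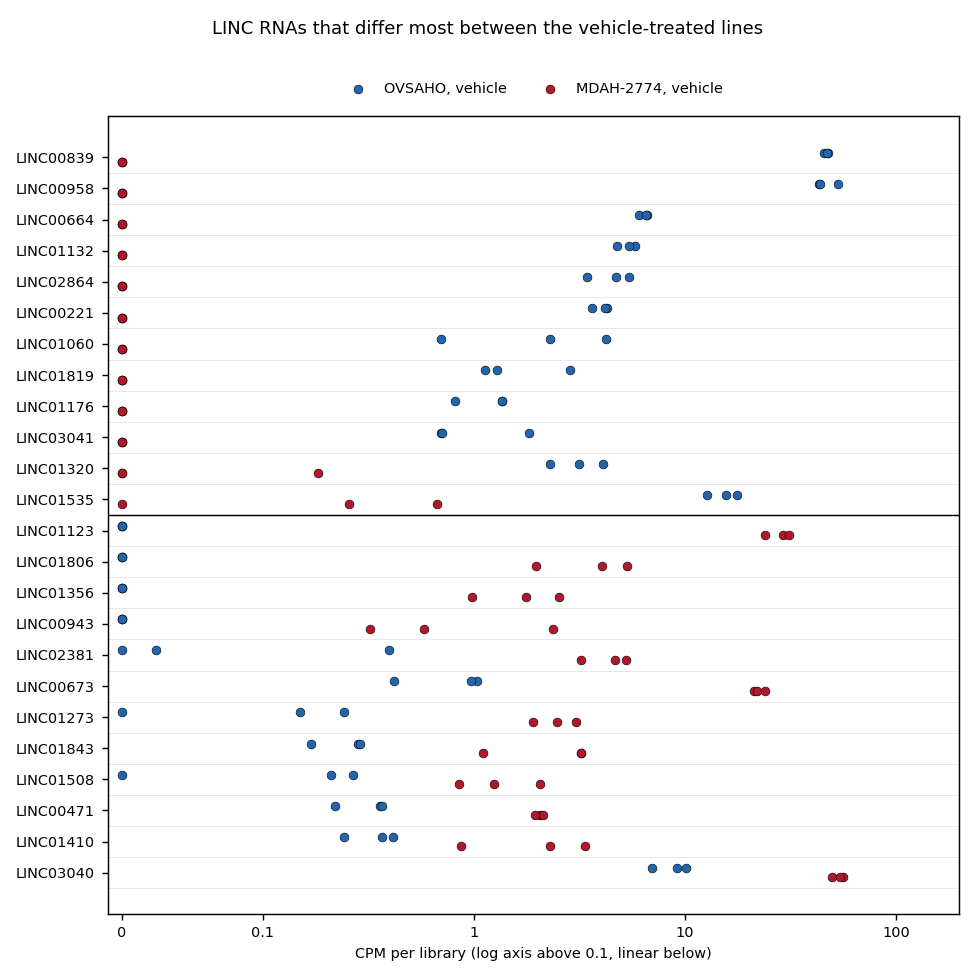
CPM of each vehicle library (3 points per line) for the 12 members with the largest called difference in each direction among those with a mean of at least 1 CPM in the higher line, OVSAHO in blue and MDAH-2774 in red, on an axis that is logarithmic above 0.1 CPM and linear below it. The 10 uppermost members have 0 counts in all 3 MDAH-2774 vehicle libraries, the 4 uppermost of the lower block have 0 counts in all 3 OVSAHO vehicle libraries, and the 2 lines do not overlap for any of the 24.

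The members best expressed in both lines differed by log2 values of -1.29 to 2.85. LINC02067 had 271, 283 and 255 CPM in vehicle-treated OVSAHO, against 238, 221 and 236 CPM in vehicle-treated MDAH-2774, a log2 difference of 0.22 ± 0.05 (adjusted p = 0.0011, edgeR), and limma on log2(RPKM + 1) did not call it (adjusted p = 0.20). LINC00665 had 102, 99.04 and 101 CPM in vehicle-treated OVSAHO, against 14.8, 17.0 and 10.1 CPM in vehicle-treated MDAH-2774, a log2 difference of 2.85 ± 0.13 (adjusted p = 2.1e-12, edgeR). LINC02693 ran the other way, at 29.5, 27.1 and 22.6 CPM in vehicle-treated OVSAHO against 68.6, 61.6 and 63.7 CPM in vehicle-treated MDAH-2774, a log2 difference of -1.29 ± 0.10 (adjusted p = 2.3e-09, edgeR). GENCODE v29 annotates LINC02693 as the protein-coding gene C17orf51 over 97.7% of its exonic bases. Of these 3, LINC02067 was nearly level between the lines.

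LINC00869 (log2 difference 1.09), LINC00472 (1.22), LINC00205 (0.62) and LINC01278 (0.62) were also higher in OVSAHO, and LINC01128 (-1.17) was lower in OVSAHO, each with an adjusted p of 0.00013 or less in edgeR. LINC00857 was higher in OVSAHO as well, at 14.9, 19.7 and 17.6 CPM with vehicle, against 6.99, 4.51 and 6.91 CPM in vehicle-treated MDAH-2774 (log2 difference 1.5 ± 0.19, adjusted p = 1.3e-06, edgeR). LINC00294 (0.39 ± 0.15, adjusted p = 0.026, edgeR) lost its call without MDAH-2774 vehicle library 1 (adjusted p = 0.060). LINC00339 did not pass (0.25 ± 0.14, adjusted p = 0.12, edgeR), and did so only without OVSAHO vehicle library 3, which stood at 14.2 CPM against 19.9 and 20.6 CPM in the other two (adjusted p = 0.0054).

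The called share varied with expression level, so members were also read against genes of like level. Over the 12 libraries, 59 of 116 members (50.9%) averaged under 2 CPM, against 10.6% of all genes. For the line comparison, 34 of 58 members tested under 2 CPM were called against 52.7% of all genes in that band, 30 of 38 between 2 and 10 CPM against 71.3%, and 17 of 19 at 10 CPM and over against 81.6%. In shares, these were 58.6%, 78.9% and 89.5% of the members. LINC01402 was removed by the low-count filter and was not tested: its counts were 5, 0 and 8 in lestaurtinib-treated MDAH-2774, 0, 0 and 0 in vehicle-treated MDAH-2774, 0, 0 and 0 in lestaurtinib-treated OVSAHO and 0, 0 and 12 in vehicle-treated OVSAHO.

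Lestaurtinib changed few LINC RNAs at the threshold. In MDAH-2774, 8 of 115 members (6.96%) were called and all 8 rose, where 17.1% of all genes were called, 8.08% as higher and 9.05% as lower. In OVSAHO, 9 members (7.83%) were called, 6 higher (5.22%) and 3 lower (2.61%), where 15.7% of all genes were called, 9.19% as higher and 6.54% as lower. LINC01111 was the 1 member called in both lines, and 16 were called in either. At an unadjusted p under 0.05 there were 21 in MDAH-2774 (18.3%, against 29.1% of all genes) and 14 in OVSAHO (12.2%, against 28.6%). The MDAH-2774 count was 4 without treated library 1 or 3, where 11.1% and 12.3% of all genes were called. It was 5 without treated library 2 or vehicle library 2, where 10.8% and 14.0% of all genes were called. With limma on log2(RPKM + 1) it was 19, where 18.9% of all genes were called. Upper-quartile scaling turned the split over all genes in OVSAHO to 999 higher and 1173 lower, against 1241 higher and 883 lower, and left the members at 5 higher and 3 lower.

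By level, the members' called shares lay close to those of other genes below 10 CPM in MDAH-2774. There, 2 of 58 members under 2 CPM were called (3.45%, against 3.09% of all genes), 3 of 38 between 2 and 10 CPM (7.89%, against 7.52%) and 3 of 19 at 10 CPM and over (15.8%, against 21.0%). In OVSAHO these were 4 of 58 (6.90%, against 2.64%), 3 of 38 (7.89%, against 8.48%) and 2 of 19 (10.5%, against 18.9%). The numbers of called members in each band were 2 to 4, which is too few to read a departure from the background.

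**Figure D2:**
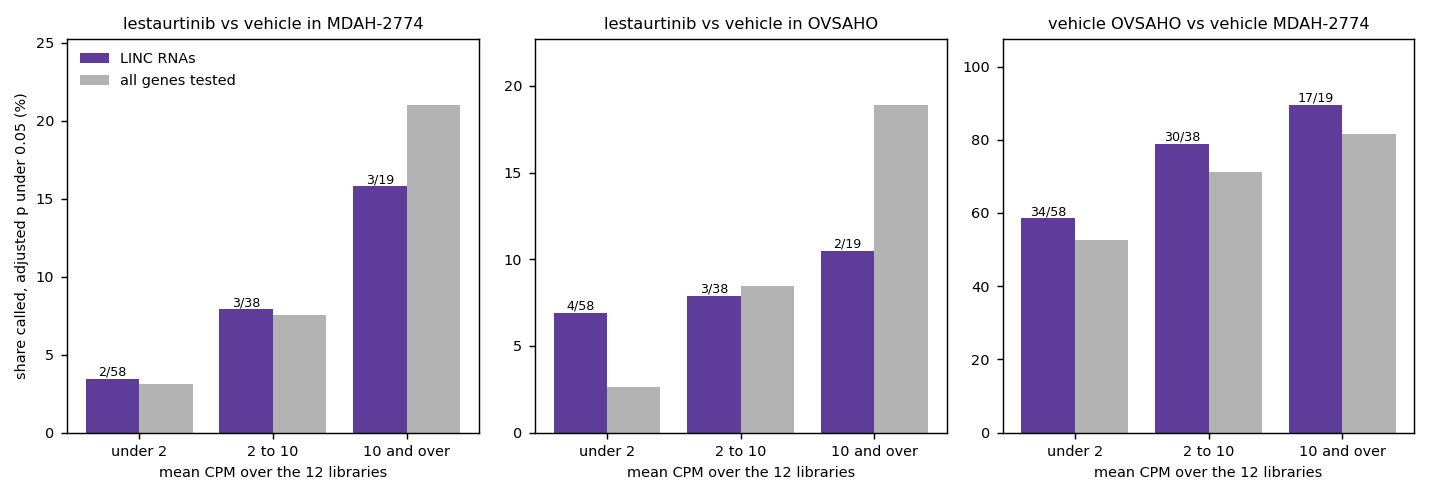
Share of LINC RNAs (purple) and of all genes tested (grey) called at an adjusted p under 0.05 in edgeR, by mean CPM over the 12 libraries, for lestaurtinib against vehicle in MDAH-2774, the same in OVSAHO, and OVSAHO against MDAH-2774 with vehicle; the numbers above the bars are members called of members tested. Both shares rise with level in each panel, for MDAH-2774 to 15.8% of members and 21.0% of all genes at 10 CPM and over.

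The direction of the members was uneven in MDAH-2774. There, 76 of 115 members had a positive fitted log2 fold change and 28 a negative one, with 11 at 0 in both groups. Of all 13498 genes tested, 7022 were positive and 6325 negative. The median over members was 0.24, against 0.01 over all genes (0.23 and 0.27 under RLE and upper-quartile scaling, with medians over all genes of 0.00 and 0.04). With those 11 left out and groups at 0 set to their bound, the median over 104 members was 0.32. Treated and vehicle libraries did not overlap for 27 members higher with lestaurtinib (23.5%, against 19.8% of all genes) and for 3 lower (2.61%, against 18.9% of all genes). In OVSAHO, 47 members were positive and 63 negative, where 6716 of all genes were positive and 6657 negative. The median over members in OVSAHO was -0.06, against 0.00 over all genes. The signs were not compared with those of genes of like level in either line. In OVSAHO, 14 members did not overlap as higher (12.2%, against 15.5% of all genes) and 11 as lower (9.57%, against 15%).

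In MDAH-2774, LINC00205, LINC00472, LINC00173 and LINC03009 rose under every setting tried. LINC00205 (chr21:45288052-45297354, plus strand) had 37.6, 36.2 and 36.8 CPM with lestaurtinib, against 19.9, 22.6 and 23.7 CPM with vehicle, a log2 fold change of 0.74 ± 0.11 (SE, adjusted p = 0.00024, edgeR). LINC00472 (chr6:71407864-71420745, minus strand) had 19.4, 22.5 and 19.3 CPM with lestaurtinib, against 9.97, 12.3 and 12.04 CPM with vehicle, a log2 fold change of 0.84 ± 0.14 (adjusted p = 0.00064, edgeR). The groups did not overlap for either RNA. The treated MDAH-2774 libraries lay near the vehicle-treated OVSAHO ones for LINC00205 (30.2 to 37.4 CPM) and below them for LINC00472 (25.9 to 27.1 CPM).

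LINC00173 had 2.37, 3.14 and 2.33 CPM in lestaurtinib-treated MDAH-2774 (125, 163 and 110 counts), against 0.928, 0.644 and 0.391 CPM with vehicle (43, 25 and 17 counts), a log2 fold change of 1.99 ± 0.39 (adjusted p = 0.0017, edgeR). LINC03009 had 143, 119 and 99 counts with lestaurtinib, against 58, 20 and 16 with vehicle, a log2 fold change of 1.72 ± 0.40 (adjusted p = 0.0060, edgeR), which was 2.42 without vehicle library 1. Both were low in vehicle-treated MDAH-2774, and neither pair of groups overlapped. LINC03009 shares 99.3% of its exonic bases with the transcribed pseudogene AC004980.1 of GENCODE v29 on the same strand and runs opposite to POMZP3 over 28.7% of its exonic bases, and POMZP3 had a log2 fold change of 0.18 ± 0.15 in MDAH-2774 (adjusted p = 0.49, edgeR).

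Each of the remaining 4 calls in MDAH-2774 was lost when certain single libraries were left out. LINC02067 had 267, 259 and 271 CPM with lestaurtinib, against 238, 221 and 236 CPM with vehicle, a log2 fold change of 0.20 ± 0.05 (adjusted p = 0.015, edgeR), with adjusted p of 0.060 and 0.062 without treated library 1 or 3 and 0.070 without vehicle library 2. LINC01111 had 183, 117 and 191 counts with lestaurtinib, against 25, 26 and 58 with vehicle (1.94 ± 0.63, adjusted p = 0.048, edgeR), and was not called without any 1 of the 3 treated libraries, vehicle library 1 or 2, or OVSAHO treated library 2 (adjusted p 0.057 to 0.18). The groups did not overlap for either RNA.

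LINC01410 had 356, 342 and 377 counts in lestaurtinib-treated MDAH-2774, against 156, 34 and 100 with vehicle (1.70 ± 0.54, adjusted p = 0.040, edgeR), and was not called without any 1 of the treated libraries or vehicle library 2 or 3 (adjusted p 0.083 to 0.14). LINC02043 had 152, 148 and 144 counts with lestaurtinib, against 40, 66 and 41 with vehicle (1.33 ± 0.43, adjusted p = 0.044, edgeR), and was not called without any 1 of the treated libraries, vehicle library 1 or 3, OVSAHO treated library 2 or OVSAHO vehicle library 1 (adjusted p 0.051 to 0.12). Again the groups did not overlap, and the treated libraries were the more even ones.

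In OVSAHO the clearest response was that of LINC02904, which GENCODE v29 names C8orf31. It lies at chr8:143039209-143054303 (plus strand) and had 945, 952 and 1127 counts with lestaurtinib, against 305, 273 and 57 with vehicle, or 30.7, 30.9 and 29.1 CPM against 5.76, 6.65 and 1.502 CPM. The log2 fold change was 2.7 ± 0.34 (adjusted p = 3.7e-05, edgeR) and stayed between 2.25 and 3.02 under all alternatives. In MDAH-2774 the same RNA had 2.71, 2.62 and 2.43 CPM with lestaurtinib, against 1.92, 1.91 and 1.33 CPM with vehicle, a change that did not pass (0.59 ± 0.36, adjusted p = 0.31, edgeR). Treated OVSAHO thus stood above all 9 other libraries.

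LINC03040 and LINC02861 also rose in OVSAHO under every setting tried. LINC03040 had 12.2, 15.7 and 16.7 CPM with lestaurtinib, against 9.17, 7.02 and 10.1 CPM with vehicle, a log2 fold change of 0.76 ± 0.14 (adjusted p = 0.00086, edgeR). LINC02861 (chr16:3947609-3950444, minus strand) had 136, 152 and 160 counts with lestaurtinib, against 34, 90 and 14 with vehicle, a log2 fold change of 2.07 ± 0.52 (adjusted p = 0.012, edgeR), which was 3.12 without vehicle library 2, the library with 90 counts. LINC00641 had 12.7, 16.4 and 14.4 CPM with lestaurtinib, against 10.9, 7.94 and 11.5 CPM with vehicle (0.52 ± 0.17, adjusted p = 0.044, edgeR). None of the 3 overlapped between the groups, and LINC00641 lost its call without MDAH-2774 treated library 1, 2 or 3, OVSAHO treated library 2 or 3, or OVSAHO vehicle library 1 or 2 (adjusted p 0.054 to 0.18). In MDAH-2774, LINC00641 had 14.03, 14.09 and 16.65 CPM with lestaurtinib, against 11.8, 10.94 and 9.759 CPM with vehicle. That rise was of like size but did not pass (0.46 ± 0.17, adjusted p = 0.066, edgeR), and the difference of response was 0.06 ± 0.23 (adjusted p = 0.92, edgeR).

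LINC01111 and LINC03026 were seen in OVSAHO almost only with lestaurtinib, at few counts. LINC01111 (chr8:76406654-76524356, plus strand) had 29, 13 and 8 counts with lestaurtinib, against 0, 0 and 0 with vehicle, at least 21.9-fold higher with lestaurtinib (adjusted p = 0.0013, edgeR; 0.17 with limma on log2(RPKM + 1)). LINC03026 (chr9:88066435-88072796, minus strand) had 26, 6 and 4 counts with lestaurtinib, against 1, 0 and 0 with vehicle, a ratio of 47.3 with a 95% counting interval of 7.97 to 1921 (exact binomial; adjusted p = 0.048, edgeR). The LINC03026 call was lost without any of 9 libraries, namely the 3 MDAH-2774 treated libraries, MDAH-2774 vehicle library 1, OVSAHO treated library 1 or 2 and the 3 OVSAHO vehicle libraries (adjusted p 0.054 to 0.21). In both RNAs treated library 1 held most of the group's counts, 29 of 50 for LINC01111 and 26 of 36 for LINC03026, and without it the fitted log2 fold changes were 6.77 and 3.86, against 7.48 and 5.20.

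The 3 members that fell in OVSAHO were LINC00511, LINC00673 and LINC02615. LINC00511 (chr17:72598041-72640472, minus strand) had 0, 0 and 0 counts with lestaurtinib, against 22, 5 and 23 with vehicle, at least 12.7-fold lower with lestaurtinib (adjusted p = 0.0038, edgeR; 0.30 with limma on log2(RPKM + 1)). GENCODE v29 annotates 100% of the exonic bases of LINC00673 as exons of LINC00511 on the same strand. Whether they are separate RNAs was not tested. LINC00673 had 0, 9 and 14 counts with lestaurtinib, against 55, 40 and 16 with vehicle (-1.85 ± 0.49, adjusted p = 0.017, edgeR). That call was lost without vehicle library 1 or 2 (adjusted p of 0.052 and 0.051, edgeR), its value was -2.50 without treated library 3, and a fit of the 6 OVSAHO libraries alone gave an adjusted p of 0.21. In MDAH-2774, LINC00511 had 86, 100 and 46 counts with lestaurtinib, against 68, 79 and 112 with vehicle (-0.42 ± 0.61, adjusted p = 0.71, edgeR), and LINC00673 had 13.1, 14.7 and 16.1 CPM, against 24.1, 21.4 and 21.9 CPM (-0.62 ± 0.28, adjusted p = 0.15, edgeR).

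LINC02615 (chr4:128428016-128519398, plus strand) had 7, 9 and 14 counts in lestaurtinib-treated OVSAHO, against 63, 27 and 83 with vehicle, a log2 fold change of -2.17 ± 0.54 (adjusted p = 0.011, edgeR; 0.058 in the 6 OVSAHO libraries alone). In MDAH-2774 it had 164, 172 and 204 counts with lestaurtinib, against 67, 103 and 68 with vehicle (0.92 ± 0.46, adjusted p = 0.20, edgeR). Treated and vehicle libraries did not overlap in either line, with the treated ones lower in OVSAHO and higher in MDAH-2774.

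**Figure D3:**
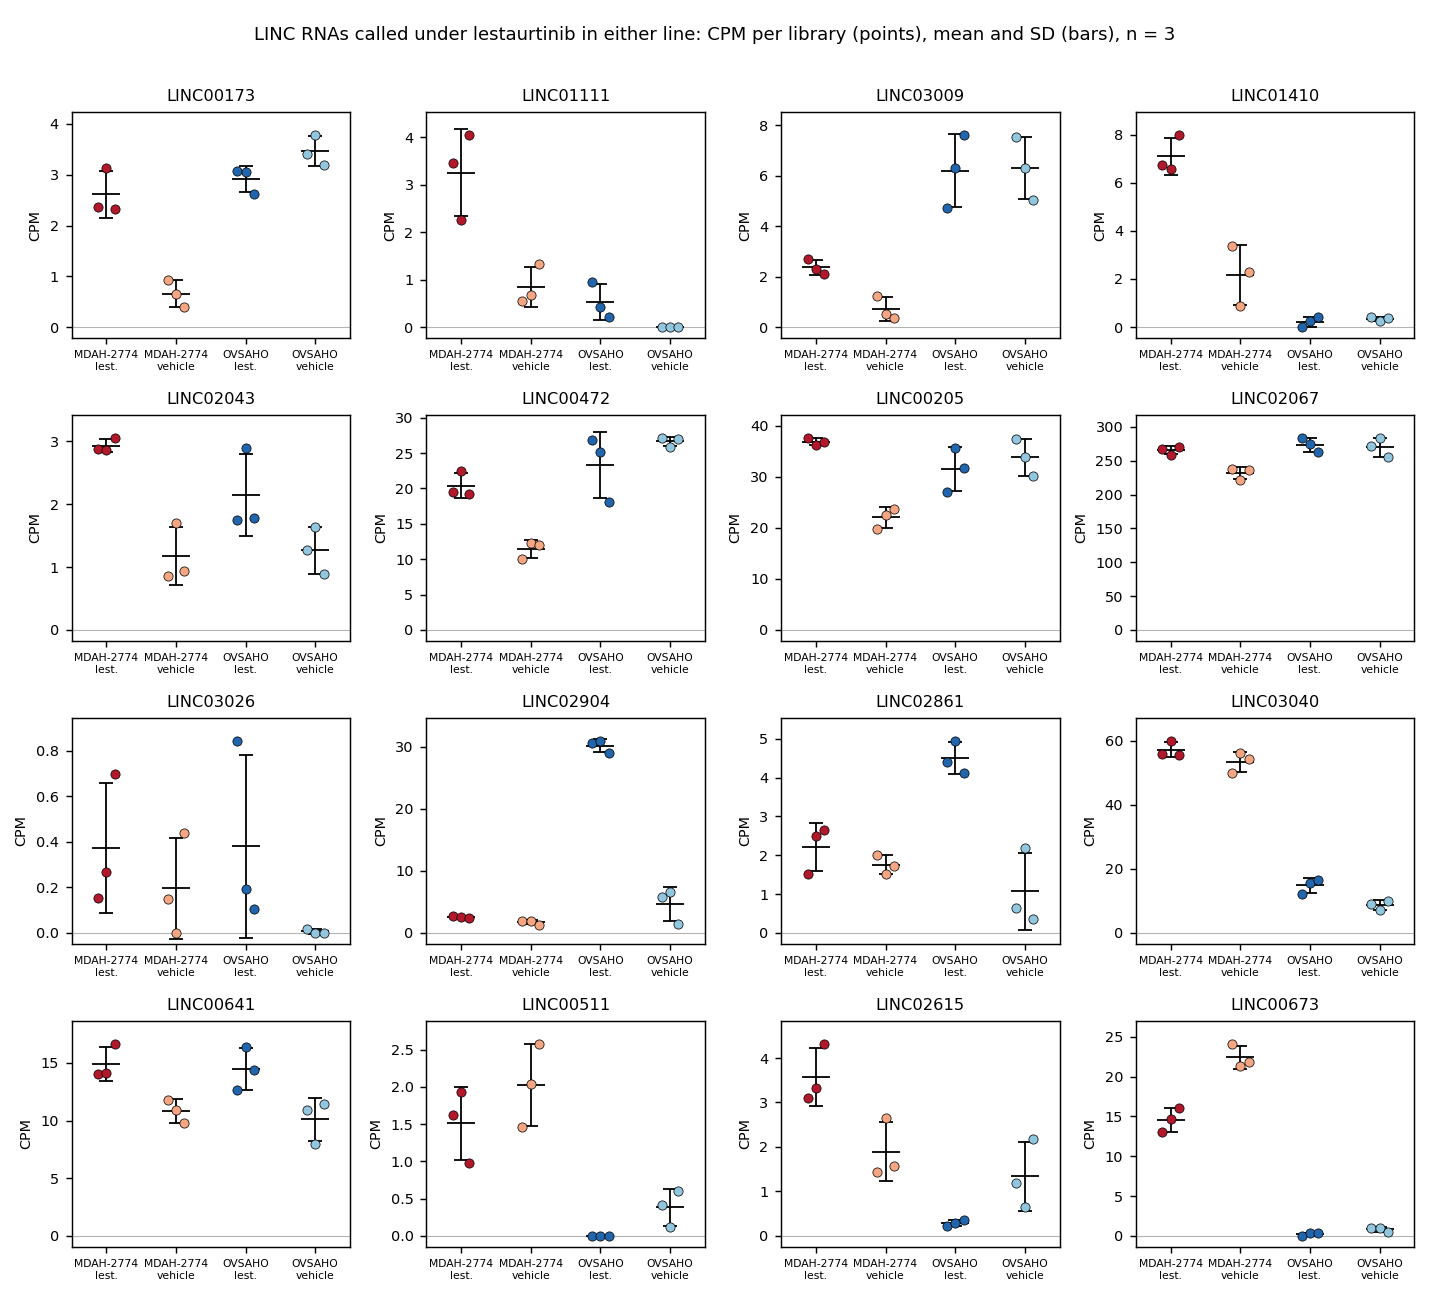
CPM per library (points) with mean and SD (bars, n = 3) for the 16 members called under lestaurtinib in either line, in the order MDAH-2774 with lestaurtinib, MDAH-2774 with vehicle, OVSAHO with lestaurtinib and OVSAHO with vehicle, on linear axes. The OVSAHO treated libraries of LINC02904 sit at 29.1 to 30.9 CPM, above the 9 other libraries, and the 0 counts of LINC01111 in vehicle-treated OVSAHO and of LINC00511 in lestaurtinib-treated OVSAHO lie on the zero line.

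The response differed between the lines for 9 members by the test of the difference itself (7.83%, against 16.8% of all genes), 3 with a higher (2.61%, against 9.22%) and 6 with a lower (5.22%, against 7.59%) response in OVSAHO, and at an unadjusted p under 0.05 there were 19 (16.5%, against 29.9%). By level these were 3 of 58 members under 2 CPM (5.17%, against 3.64% of all genes), 3 of 38 between 2 and 10 CPM (7.89%, against 8.48%) and 3 of 19 at 10 CPM and over (15.8%, against 20.3%). Those 9 were LINC02904, LINC03040 and LINC01111 on the higher side and LINC00511, LINC02615, LINC00173, LINC03009, LINC00472 and LINC00205 on the lower side. LINC00205 had 27.1, 35.6 and 31.7 CPM in lestaurtinib-treated OVSAHO, against 37.4, 33.9 and 30.2 CPM with vehicle, and LINC00472 had 26.8, 25.1 and 18.1 CPM, against 27.1, 25.9 and 27.0 CPM. In OVSAHO the libraries of both overlapped, and the differences of response were -0.85 ± 0.16 for LINC00205 (adjusted p = 0.0018, edgeR) and -1.03 ± 0.20 for LINC00472 (adjusted p = 0.0022, edgeR).

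LINC00173 and LINC03009 moved less in OVSAHO. LINC00173 had 3.08, 3.06 and 2.63 CPM in lestaurtinib-treated OVSAHO, against 3.42, 3.78 and 3.19 CPM with vehicle, a difference of response of -2.23 ± 0.53 (adjusted p = 0.0079, edgeR), and its treated OVSAHO libraries all lay below the vehicle ones. LINC03009 had 4.70, 6.31 and 7.61 CPM in lestaurtinib-treated OVSAHO, against 7.53, 6.31 and 5.06 CPM with vehicle, a difference of -1.74 ± 0.53 (adjusted p = 0.033, edgeR) with overlapping OVSAHO libraries. That difference was -2.44 without MDAH-2774 vehicle library 1 and was not called without any 1 of 9 other libraries (the 3 MDAH-2774 treated libraries, MDAH-2774 vehicle library 2 or 3, OVSAHO treated library 1 or 2 and OVSAHO vehicle library 1 or 2; adjusted p 0.052 to 0.084).

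LINC02904 (2.11 ± 0.49, adjusted p = 0.0074), LINC02615 (-3.09 ± 0.71, adjusted p = 0.0066) and LINC00511 (-6.61 ± 1.69, adjusted p = 0.015) also differed in response, the last against a group at 0 counts and with an adjusted p of 0.91 in limma on log2(RPKM + 1). LINC03040 had 56.1, 60.0 and 55.7 CPM in lestaurtinib-treated MDAH-2774, against 50.1, 56.2 and 54.3 CPM with vehicle, and a difference of 0.66 ± 0.18 (adjusted p = 0.020, edgeR), not called without MDAH-2774 treated library 1 or 3 or OVSAHO treated library 3 (adjusted p 0.052 to 0.056). The sign for LINC01111 turned with the scale: its fitted difference was 5.54 ± 1.65 (adjusted p = 0.032, edgeR), against -0.66 with limma on log2(RPKM + 1) and -0.01 with limma on log2(RPKM + 0.1), and on the CPM scale it reached 3.25 ± 0.912 in lestaurtinib-treated MDAH-2774 against 0.848 ± 0.427 with vehicle, but 0.523 ± 0.378 in lestaurtinib-treated OVSAHO against 0 with vehicle (SD, n = 3). It was not called with any 1 of 8 libraries left out (the 3 MDAH-2774 treated libraries, MDAH-2774 vehicle library 3, OVSAHO treated library 1 and the 3 OVSAHO vehicle libraries; adjusted p 0.053 to 0.068).

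**Figure D4:**
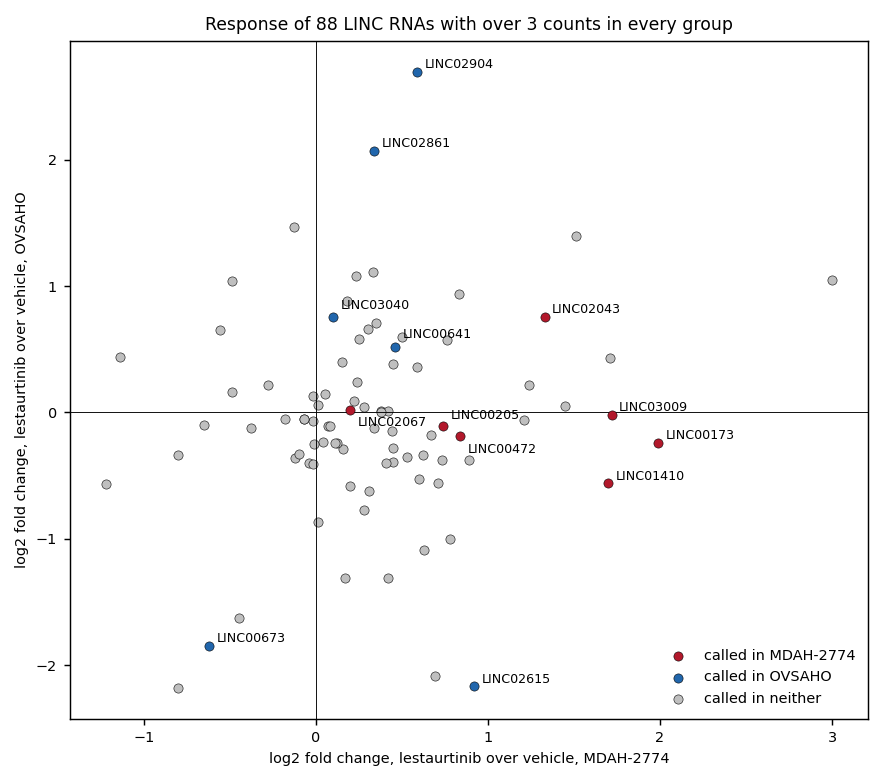
Log2 fold change of lestaurtinib over vehicle in MDAH-2774 (horizontal) and in OVSAHO (vertical) for the 88 members with over 3 counts in every group, coloured by the line in which they were called. The members called in MDAH-2774 spread along the horizontal axis from 0.20 to 1.99 and those called in OVSAHO along the vertical axis from -2.17 to 2.7.

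None of the 16 members listed at 0 counts throughout one line was called for lestaurtinib in the other, 0 of 11 in OVSAHO and 0 of 5 in MDAH-2774. Over all genes, 15.7% were called in OVSAHO and 17.1% in MDAH-2774, and under 2 CPM 2.64% and 3.09%. These members are too few to be read against that background. The line comparison and both lestaurtinib comparisons share vehicle libraries, so their values are given side by side only.

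The nearest coding gene of the table within 100 kb of gene bodies was found for 77 members. For the line difference, the member was called in 52 of 77 pairs, and the neighbour as well in 42 of these, where 77.4% of all genes were called. The signs were the same in 27 of the 42, and no share of same-sign pairs among other gene pairs was taken for comparison. The fitted values had a Pearson correlation of 0.41 and a Spearman correlation of 0.35 over the 77 pairs. These pairs come from the same 6 libraries and are not independent, so the correlations are a description. For lestaurtinib, the Pearson correlations were 0.03 in MDAH-2774 and 0.06 in OVSAHO.

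The pairs named next for the line difference were chosen after their values were seen. LINC00958 lies 19.9 kb from RASSF10, a gene of the Ras association domain family, which had 15.8, 10.5 and 9.83 CPM in vehicle-treated OVSAHO and 0 in each vehicle-treated MDAH-2774 library. LINC00664 lies 2.4 kb from the zinc finger gene ZNF429, which had 10.3, 9.23 and 7.22 CPM in vehicle-treated OVSAHO, against 0, 0.180 and 0 CPM in vehicle-treated MDAH-2774. On chromosome 19, LINC00665 with ZFP14 (2.7 kb; neighbour log2 difference 2.86 ± 0.14), LINC01224 with ZNF91 (3.7 kb; 2.45 ± 0.16) and LINC01535 with ZNF383 (8.0 kb; 2.08 ± 0.18) were likewise higher in OVSAHO for both partners. LINC00665 matches 16.7% of the LINC01535 transcript, so some reads of these members may be shared. Of 7 members on chromosome 19, 5 were called higher in OVSAHO and 0 lower, where 490 of all 999 genes of that chromosome in the table were higher and 283 lower. LINC00472 ran opposite to OGFRL1, 98.9 kb away, which had 8.81, 8.77 and 10.4 CPM in vehicle-treated OVSAHO against 171, 184 and 179 CPM in vehicle-treated MDAH-2774.

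Under lestaurtinib, the neighbour was called as well in 3 of 6 pairs with a called member in OVSAHO, where 15.7% of all genes were called, and in 0 of 5 pairs in MDAH-2774, where 17.1% were. These numbers are too small to be read against that background, and the difference between the lines was not tested. LY6E, an interferon-inducible gene 16.8 kb from LINC02904, had 290, 308 and 338 CPM in lestaurtinib-treated OVSAHO, against 231, 192 and 197 CPM with vehicle (0.59 ± 0.07, adjusted p = 2.1e-05, edgeR), and rose in MDAH-2774 as well (0.52 ± 0.07, adjusted p = 0.00011, edgeR). ADCY9, which encodes an adenylyl cyclase and lies 2.9 kb from LINC02861, rose in OVSAHO by 0.58 ± 0.13 (adjusted p = 0.0070, edgeR), and HNRNPC, which encodes an RNA-binding protein and lies 2.2 kb from LINC00641, by 0.16 ± 0.05 (adjusted p = 0.040, edgeR). In MDAH-2774 the neighbours of LINC00205 (POFUT2, 0.2 kb), LINC00173 (MAP1LC3B2, 22.7 kb), LINC00472 (OGFRL1), LINC02043 (RFC4, 4.2 kb) and LINC03009 (POMZP3, overlapping) had log2 fold changes of -0.22 to 0.18, and none passed.

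**Figure D5:**
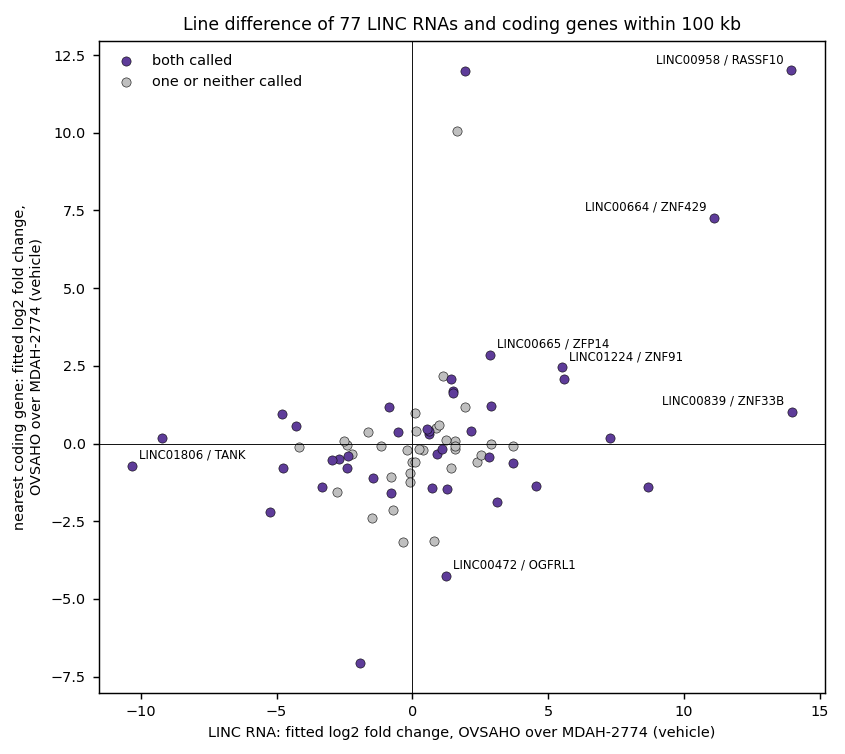
Fitted log2 difference, OVSAHO minus MDAH-2774 with vehicle, of 77 LINC RNAs (horizontal) and of the nearest coding gene within 100 kb (vertical), purple where both were called. The 42 purple pairs lie in the same-sign quadrants 27 times, with LINC00958 and RASSF10 farthest to the upper right; values beyond about 8 involve groups at 0 counts and depend on the fit.

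Promoter windows from RefSeq (GRCh38.p14, 250 bases before to 50 bases after the gene start, 5′ to 3′ on the gene's strand) are printed for the members with the largest called increases and decreases that the promoter table holds. They were searched on both strands for the cyclic AMP response element TGACGTCA, the AP-1 site TGANTCA and the STAT site TTCNNNGAA, and matches would stand in capitals. None of the 4 windows held any of the 3. The windows are at chr9:88077851-88078150 (minus strand) for LINC03026, which lies outside the gene body of the deposited table, chr12:116533172-116533471 (plus strand) for LINC00173, chr17:72640423-72640722 (minus strand) for LINC00511 and chr4:128427766-128428065 (plus strand) for LINC02615.
LINC03026: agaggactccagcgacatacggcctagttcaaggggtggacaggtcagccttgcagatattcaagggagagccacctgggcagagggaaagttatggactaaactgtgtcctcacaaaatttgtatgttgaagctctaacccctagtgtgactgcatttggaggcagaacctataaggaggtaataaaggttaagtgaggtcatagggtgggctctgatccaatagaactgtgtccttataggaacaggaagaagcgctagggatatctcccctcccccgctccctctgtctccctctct
LINC00173: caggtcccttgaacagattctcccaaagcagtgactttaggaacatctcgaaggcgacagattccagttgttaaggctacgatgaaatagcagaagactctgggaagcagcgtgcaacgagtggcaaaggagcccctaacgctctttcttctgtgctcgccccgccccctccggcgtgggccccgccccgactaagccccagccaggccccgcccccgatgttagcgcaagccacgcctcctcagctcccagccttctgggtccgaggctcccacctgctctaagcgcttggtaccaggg
LINC00511: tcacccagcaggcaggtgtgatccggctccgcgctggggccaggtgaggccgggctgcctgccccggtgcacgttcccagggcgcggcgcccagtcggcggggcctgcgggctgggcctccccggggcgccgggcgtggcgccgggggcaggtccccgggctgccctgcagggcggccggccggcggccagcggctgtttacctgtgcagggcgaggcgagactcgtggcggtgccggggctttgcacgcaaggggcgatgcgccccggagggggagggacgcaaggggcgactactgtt
LINC02615: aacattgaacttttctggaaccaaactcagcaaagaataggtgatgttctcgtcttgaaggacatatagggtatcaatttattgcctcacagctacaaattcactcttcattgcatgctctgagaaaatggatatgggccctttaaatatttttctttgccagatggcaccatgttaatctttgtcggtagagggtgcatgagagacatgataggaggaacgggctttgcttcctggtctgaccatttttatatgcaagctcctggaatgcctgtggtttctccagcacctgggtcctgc

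The windows differed in base composition, with G and C making up 78.0% of the LINC00511 window and 61.0% of that of LINC00173, against 50% for LINC03026 and 43.3% for LINC02615. Over the 89 members with a promoter in the table, the cyclic AMP response element stood in 2 windows (2.25%, against 3.22% of 10762 genes of the deposited table and 1.98% of all 27305 RefSeq promoters given), the AP-1 site in 8 (8.99%, against 4.44% and 7.76%) and the STAT site in 5 (5.62%, against 6.21% and 7.88%). None of the 11 members called under lestaurtinib whose promoter the table holds had any of the 3. A match is a run of letters and not a binding site, and its absence from a window says nothing about the factor.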

How the data were processed

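RNA for the 12 libraries was extracted with a miRNeasy kit and prepared with a TruSeq stranded mRNA kit, per the labels' protocols. STAR 2.7.3a, featureCounts 2.8.2 and hg38 are listed in the submitters' processing notes. The authors deposited raw read counts per gene and RPKM values side by side in 1 table. Its 13869 rows each exceed 1 RPKM in at least 1 library, as the values show. The symbol pattern that gives the members uses no measured value, but it and the lists were chosen with earlier results of these data known.

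From the deposited counts, edgeR 4.0.16 (R 4.3.3) was fitted with TMM factors, 4 group means and all 12 libraries. filterByExpr at a minimum count of 10 kept 13498 genes. Quasi-likelihood tests were adjusted by Benjamini-Hochberg, with called meaning an adjusted p under 0.05, and SEs were taken from the F statistic. The fit was also run on counts simulated from its own estimated dispersions, with changes placed only in genes that had counts in vehicle. That run does not test calls against groups at 0 counts. Alternatives were RLE and upper-quartile scaling, no filter, a filter of 1 CPM in 3 libraries, DESeq2 1.42.0, limma 3.58.1 on log2(RPKM + 1) and log2(RPKM + 0.1), a replicate block, only the 6 libraries compared, and each library left out. LINC genes were named if called under lestaurtinib or in the difference of response, if among the 12 largest called line differences in each direction at a mean of at least 1 CPM in the higher group, or if among the 10 with the highest smaller vehicle mean, and LINC00511 and LINC00857 in any case. Intervals and bounds cover counting error only. Annotation came from GENCODE v29 and RefSeq.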

Additional observations from a re-analysis of the deposited data

Results flagged for a closer look

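The response to lestaurtinib differed between the lines, by the interaction term of edgeR's quasi-likelihood fit with Benjamini-Hochberg adjustment over all genes tested, for 9 LINC RNAs. Values are log2 fold changes in OVSAHO minus those in MDAH-2774, with SE. Those of LINC01111 (5.54 ± 1.65, adjusted p = 0.032), LINC02904 (2.11 ± 0.49, adjusted p = 0.0074) and LINC03040 (0.66 ± 0.18, adjusted p = 0.020) were positive. Those of LINC00511 (-6.61 ± 1.69, adjusted p = 0.015), LINC02615 (-3.09 ± 0.71, adjusted p = 0.0066), LINC00173 (-2.23 ± 0.53, adjusted p = 0.0079), LINC03009 (-1.74 ± 0.53, adjusted p = 0.033), LINC00472 (-1.03 ± 0.20, adjusted p = 0.0022) and LINC00205 (-0.85 ± 0.16, adjusted p = 0.0018) were negative. LINC01111 and LINC00511 each had a group at 0 counts, so their fitted sizes depend on the prior count.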

How the results depend on the processing

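The count of LINC RNAs called for lestaurtinib in MDAH-2774, 8 in the reported fit, was 13 with DESeq2, 19 with limma on log2(RPKM + 1) and 13 with limma on log2(RPKM + 0.1), where 19.6%, 18.9% and 16.8% of all genes were called. With each library left out it was 4 to 10, where 10.8% to 18.2% of all genes were called. In OVSAHO, 9 were called, against 4 when only the 6 OVSAHO libraries were fitted (4 of 93 members tested, and 15.2% of all genes). With each library left out the OVSAHO count was 6 to 11, where 10.8% to 16.8% of all genes were called. The difference of response had 9 calls, against 15 with limma on log2(RPKM + 1), where 19% of all genes were called, and 6 to 11 with each library left out. The line comparison had 81 calls and 77 to 83 with each library left out. The sign turned for the LINC01111 difference of response, which was -0.66 with limma on log2(RPKM + 1) and -0.01 with log2(RPKM + 0.1). Its OVSAHO vehicle group stood at 0 counts; the cause was not tested further.

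Replicate numbers did not pair the libraries: same-number correlations of deviations from the group means were -0.046, 0 and -0.111 in MDAH-2774, -0.118, 0.031 and 0.003 in OVSAHO, and -0.129, -0.029 and 0.01 between the vehicle groups, and not every library correlated best with its own number. With the replicate number as a block, the counts were 5 in MDAH-2774, 6 in OVSAHO, 9 for the difference and 78 for the line comparison, where 13.9%, 13.0%, 13.0% and 76.5% of all genes were called.

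LINC00173, LINC03009, LINC00472 and LINC00205 in MDAH-2774 and LINC02904, LINC02861 and LINC03040 in OVSAHO kept their call under every alternative run. Of the 116 members, 59 averaged under 2 CPM; the effect of depth on the calls was not tested.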

Other observations

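Other long non-coding RNAs, in lists that were not part of the LINC set, moved as follows; over all genes tested, 8.08% were called higher and 9.05% lower in MDAH-2774, and 9.19% higher and 6.54% lower in OVSAHO. Of 15 tested small nucleolar RNA host genes, 5 were called higher and 0 lower with lestaurtinib in MDAH-2774, with a median log2 fold change of 0.25 (0.01 over all genes), against 0 higher and 1 lower in OVSAHO, with a median of -0.01 (0.00 over all genes). SNHG32 had 102.5, 102.2 and 101.6 CPM in lestaurtinib-treated MDAH-2774, against 61.4, 55.7 and 59.5 CPM with vehicle (0.79 ± 0.06, adjusted p = 1.9e-07, edgeR). SNHG29 rose in MDAH-2774 (0.40, adjusted p = 4.9e-05, edgeR) and fell in OVSAHO (-0.23, adjusted p = 0.0058, edgeR). In the vehicle libraries 14 of the 15 were called higher in OVSAHO than in MDAH-2774 and 0 lower (38.6% and 38.9% over all genes), with a median log2 difference of 1.26.

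Of 15 tested microRNA host genes, 0 were called higher and 2 lower in MDAH-2774, with a median of 0.02, and 1 higher and 0 lower in OVSAHO, with a median of -0.05. MIR210HG, host of a hypoxia-regulated microRNA, had 3.54, 3.49 and 2.48 CPM with lestaurtinib, against 6.95, 7.55 and 7.57 CPM with vehicle (-1.21 ± 0.27, adjusted p = 0.0050, edgeR), and MIR31HG also fell (-2.13 ± 0.51, adjusted p = 0.0079, edgeR). In OVSAHO, MIR22HG was the 1 called, with 14.9, 17.1 and 19.7 CPM with lestaurtinib, against 11.1, 11.1 and 10.6 CPM with vehicle (0.66 ± 0.14, adjusted p = 0.0048, edgeR). Of 14 widely studied long non-coding RNAs, 5 rose and 0 fell in MDAH-2774 (median 0.24), and 4 rose and 3 fell in OVSAHO (median -0.07). The imprinted RNA H19 had 798, 824 and 814 CPM in lestaurtinib-treated OVSAHO, against 593, 419 and 587 CPM with vehicle (0.61, adjusted p = 0.0017, edgeR). NEAT1, which builds nuclear paraspeckles, had 92.9, 95.8 and 83.5 CPM in lestaurtinib-treated OVSAHO, against 123, 117 and 129 CPM with vehicle (-0.44, adjusted p = 0.00041, edgeR).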
